A study of Mus musculus with 24 samples.

Results

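The conjugating enzymes of the mouse intestine described here are the glutathione S-transferases, the UDP-glucuronosyltransferases of the Ugt2 family and the sulfotransferases. They were chosen by gene symbol alone, as every probe set whose symbol begins with Gsta, Gstm, Gstp, Gstt, Gsto, Gstk, Gstz, Mgst, Ugt1a, Ugt2a, Ugt2b or Sult. The rule found 41 genes of the 15267 measured: 19 soluble Gst, 3 membrane-bound Mgst, 7 Ugt2 and 12 Sult genes. The 19 soluble Gst genes are called cytosolic here, although Gstk1 among them encodes an enzyme of mitochondria and peroxisomes. Of Ugt1a genes, 0 were found, and they are not analysed here. Conjugation is the step of drug and hormone metabolism in which a water-soluble group is joined to a compound so that it can leave the cell. Gst and Mgst enzymes add glutathione to reactive electrophiles, Ugt enzymes add glucuronate taken from UDP-glucuronate, and Sult enzymes add sulfate taken from the donor PAPS. The intestinal epithelium carries all these activities and is known as a first barrier to compounds taken in with food.

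RNA came from male C57BL/6 mice aged 3 to 3.5 months, either Amacr-/- or wild-type, and the comparison addresses how loss of Amacr alters expression along the intestine. Amacr encodes a racemase of peroxisomes and mitochondria needed to degrade branched fatty acids and to form bile acids. After a rinse in 0.85% NaCl, each intestine was divided into 4 segments equal in size, numbered 1 to 4, and RNA was taken from the scraped layer. There were 24 one-colour arrays in 8 groups, with 3 samples that the labels call biological replicates in each segment of Amacr-/- and of wild-type intestine. The labels number the samples of a group but do not say that a number marks a mouse, and they do not describe the allele of the knockout.

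Levels are deposited log2 values from RMA, a method that corrects background, equalises the arrays and combines the probes of a probe set. A difference of 1 is a doubling. Levels were not compared between probe sets, except for the averages of cell type markers below, which are a rough guide only. Array medians lay between 6.05 and 6.15. Amacr was lower in Amacr-/- arrays in every segment, at 5.34 ± 0.22 against 8.42 ± 0.34 in wild-type arrays of segment 1 and at 4.96 ± 0.15 against 7.03 ± 0.08 in segment 4 (mean ± SD, n = 3 each). The labels call the cells endothelial, yet the 8 enterocyte markers averaged 13.51 to 13.70 on each array, and the 9 markers of vessel endothelium 4.90 to 5.75. On 6 arrays the markers of fat cells, smooth muscle or exocrine pancreas lay more than 1 log2 unit above their mean over all arrays. No source used here gives the position of the probes within the genes. Close relatives, above all among the Gstm and the Ugt2b genes, may share signal, so values of single members of these groups are uncertain to that extent.

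The conjugating enzymes changed along the intestine and gave no calls between the genotypes. From segment 1 to segment 4, 25 of the 41 genes fell and 1 rose in Amacr-/- intestine, and 24 fell and 1 rose in wild-type intestine (limma, Benjamini-Hochberg adjusted p under 0.05 over all 15267 genes). Of all genes, 14.9% fell and 15.4% rose in Amacr-/- intestine, and 13.6% fell and 10% rose in wild-type intestine, or 30.3% and 23.6% in either direction. The median change of the 41 genes was -0.61 in Amacr-/- and -0.65 in wild-type intestine, beside -0.01 and 0.03 for all genes. Any difference among the 4 segments was called for 24 of the 41 in Amacr-/- intestine (28.3% of all genes) and for 23 in wild-type intestine (22.7%). The same 23 genes fell in both genotypes, and Mgst1 rose in both. In 12 of the 23 the fall exceeded 2 log2 units, or 4-fold, in both genotypes, and these were 9 cytosolic Gst and 3 Ugt2 genes. The shares of all genes that fell in both genotypes, or fell so far in both, were not counted. Because the tissue was measured in bulk, fewer cells of a type and less RNA per cell cannot be told apart. Markers of proliferating cells averaged 5.56 to 6.30 in segment 1 and 6.94 to 7.58 in segment 4 of Amacr-/- intestine, and 5.75 to 6.91 and 6.80 to 7.52 in wild-type intestine, over the 7 of 9 markers measured. Their part in the fall was not tested beyond the covariates that follow. With the marker means of fat, smooth muscle, pancreas and proliferating cells as covariates, a setting added after the data were seen, 13 genes fell in Amacr-/- and 14 in wild-type intestine, 12 of them in both (11 cytosolic Gst genes and Ugt2a3). When the 6 arrays with raised markers were left out, 1 array remained in segment 2 of Amacr-/- intestine. Gstm6 then changed by -5.00 in Amacr-/- and -4.85 in wild-type intestine from segment 1 to 4, and Mgst1 by 0.66 and 0.49. With the covariates 6.05% of all genes were called in Amacr-/- and 7.97% in wild-type intestine.

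**Figure D1:**
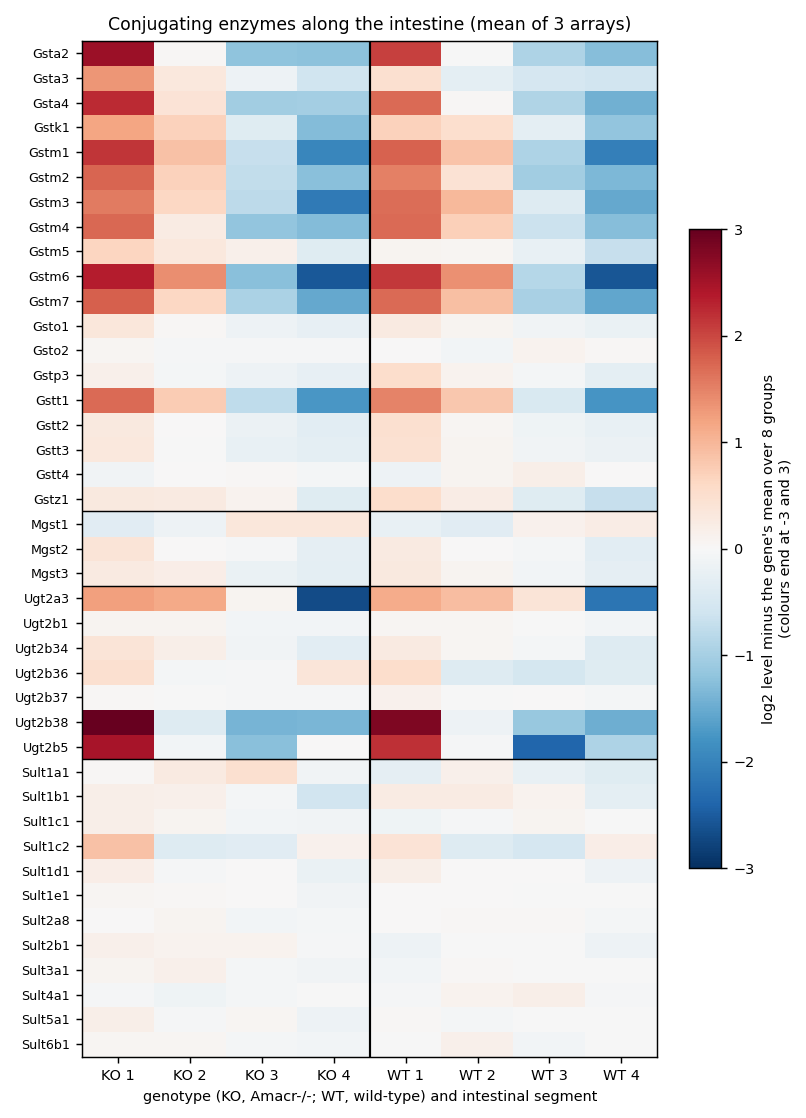
Levels of the 41 conjugating enzymes in segments 1 to 4 of Amacr-/- (left, KO) and wild-type (right, WT) intestine. Each cell is the mean of 3 arrays, in log2 units, minus the gene's mean over the 8 groups, with colours ending at -3 and 3. Of the 41 genes, 30 were highest in segment 1 in both genotypes, and most Sult rows are near white. The 30 include genes under 5 on every array, such as Sult1e1 and Ugt2b37. The share of all genes highest in segment 1 was not counted.

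The decline ran over several steps. Group means were lower at each of the 3 steps in both genotypes for 20 genes. These were 16 cytosolic Gst genes, among them all 7 Gstm genes, with Mgst2, Mgst3, Ugt2a3 and Ugt2b34. No size of step was required, and some steps were slight. Gstm5 averaged 8.54 in segment 1 and 8.53 in segment 2 of wild-type intestine, and the first step of Ugt2a3 was not called. The share of all genes with such an order was not counted. Over both genotypes, 15 genes fell and 0 rose from segment 1 to 2, when 3.65% of all genes fell and 3.36% rose (7.02% together). From segment 2 to 3, 14 fell and 1 (Mgst1) rose, when 6.75% of all genes fell and 3.99% rose (10.7% together). From segment 3 to 4, 10 fell and 1 (Ugt2b5) rose, when 6.11% of all genes went each way (12.2% together). These step counts moved with the 6 arrays that had raised markers. When those were left out, 8 genes changed from segment 1 to 2 (3.19% of all genes) and 6 from segment 2 to 3 (2.9%). With the marker covariates, 8 changed from segment 1 to 2 (2.78%), 10 from segment 2 to 3 (5.48%) and 2 from segment 3 to 4 (2.25%).

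**Figure D2:**
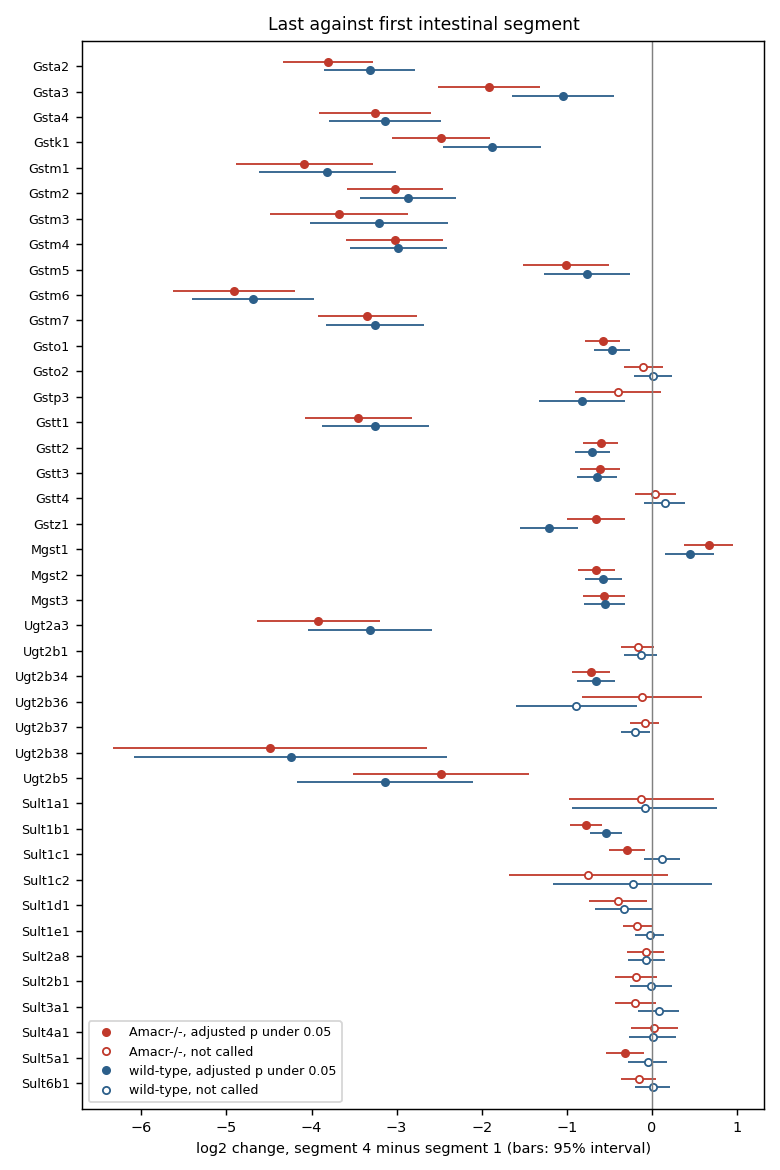
Log2 change of each conjugating enzyme, segment 4 minus segment 1, in Amacr-/- (red, upper of each pair) and wild-type intestine (blue, lower). Points are limma estimates, bars 95% intervals and filled points adjusted p under 0.05. Most Gst genes lie far left of 0, with Gstm6 at -4.92 in Amacr-/- and -4.69 in wild-type intestine, while most Sult genes lie near 0.

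Alpha-class enzymes detoxify lipid peroxides and their products, and all 3 alpha genes measured (Gsta2, Gsta3 and Gsta4) fell from segment 1 to segment 4 in both genotypes. In Amacr-/- arrays Gsta2 read 8.12, 8.33 and 8.21 in segment 1, 5.39, 5.43 and 6.21 in segment 2, 4.70, 4.29 and 4.32 in segment 3 and 4.45, 4.10 and 4.69 in segment 4. In wild-type arrays it read 7.15, 7.60 and 8.31 in segment 1, 5.57, 6.1 and 5.24 in segment 2, 4.62, 4.76 and 4.76 in segment 3 and 4.32, 4.32 and 4.47 in segment 4. Segments 1 and 2 stood clear of each other and of both later segments in either genotype, while segments 3 and 4 overlapped in Amacr-/- intestine. Gsta2 thus showed a log2 change of -3.81 (SE 0.25, adjusted p = 1.49e-09) in Amacr-/- and of -3.32 (SE 0.25, adjusted p = 1.29e-08) in wild-type intestine. Most of it lay in the first step, from segment 1 to 2, with a mean of -2.30 (SE 0.18, adjusted p = 1.44e-07) over both genotypes, and the last step of -0.18 was not called (adjusted p = 0.595). Gsta4, whose enzyme prefers the lipid aldehyde 4-hydroxynonenal, averaged 11.92 ± 0.31 in segment 1 and 8.66 ± 0.59 in segment 4 of Amacr-/- intestine, and 11.39 ± 0.53 and 8.26 ± 0.32 in wild-type intestine (SD, n = 3). Its changes over the intestine were -3.25 in Amacr-/- and -3.14 in wild-type mice, and it too did most of its falling by segment 3. Gsta3 fell by 1.92 in Amacr-/- and by 1.05 in wild-type intestine. The wild-type fall of Gsta3 rested on 1 array: without replicate 3 of segment 1 it was -0.68, with an adjusted p of 0.0974.

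Mu-class enzymes, which take aryl compounds and epoxides, moved together: all 7 Gstm genes fell from segment 1 to segment 4 in both genotypes. These genes are neighbours on chromosome 3, in the order Gstm5, Gstm7, Gstm6, Gstm3, Gstm2, Gstm1 and Gstm4. Gstm6 changed most among the 41, with 10.71, 10.16 and 10.18 in segment 1, 9.44, 9.07 and 9.66 in segment 2, 7.32, 6.69 and 6.18 in segment 3 and 5.45, 5.28 and 5.57 in segment 4 in Amacr-/- intestine. The wild-type arrays of Gstm6 read 9.80, 9.93 and 10.59 in segment 1, 9.37, 9.66 and 9.03 in segment 2, 6.84, 7.60 and 6.92 in segment 3 and 4.90, 4.97 and 6.37 in segment 4. No array of one segment reached into the range of its neighbour, in either genotype. Gstm6 was 30.2-fold lower in segment 4 of Amacr-/- intestine (log2 -4.92, SE 0.34, adjusted p = 2.44e-09) and 25.9-fold lower in wild-type intestine (log2 -4.69, SE 0.34, adjusted p = 6.89e-09). Its steepest step was from segment 2 to 3, at -2.45 (SE 0.24, adjusted p = 1.8e-06). The first step of Gstm6, -0.86, lost its call when any 1 of 8 arrays was left out, with adjusted p between 0.0365 and 0.104 over all 12 arrays left out in turn.

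Gstm7, next to Gstm6 in this order, was also lower at each step, with 8.41, 8.55 and 8.18 in segment 1, 7.31, 6.98 and 7.30 in segment 2, 6.12, 5.46 and 5.32 in segment 3 and 5.21, 4.89 and 5.01 in segment 4 in Amacr-/- arrays. Wild-type arrays of Gstm7 gave 8.19, 8.09 and 8.57 in segment 1, 7.50, 7.67 and 7.30 in segment 2, 4.97, 6.00 and 5.85 in segment 3 and 4.35, 5.17 and 5.57 in segment 4. Each segment stood apart from the next in Amacr-/- intestine, and in wild-type intestine segments 3 and 4 overlapped. For Gstm2, Amacr-/- arrays gave 10.40, 10.23 and 10.12 in segment 1, 9.69, 8.59 and 9.26 in segment 2, 7.93, 7.25 and 8.10 in segment 3 and 7.43, 7.31 and 6.95 in segment 4. The wild-type levels of Gstm2 were 9.72, 9.76 and 10.54 in segment 1, 9.14, 9.10 and 8.55 in segment 2, 7.69, 7.43 and 7.22 in segment 3 and 7.25, 6.85 and 7.31 in segment 4. Here segments 3 and 4 overlapped in both genotypes and the earlier ones did not. Over the whole intestine Gstm7 had a log2 change of -3.34 (SE 0.28, adjusted p = 2.24e-08) in Amacr-/- and of -3.25 (SE 0.28, adjusted p = 4.87e-08) in wild-type intestine. For Gstm2 the change was -3.02 (SE 0.27, adjusted p = 6.01e-08) in Amacr-/- and -2.87 (SE 0.27, adjusted p = 1.74e-07) in wild-type intestine.

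The remaining mu-class genes differed in size. Gstm1 changed by -4.09 in Amacr-/- and -3.82 in wild-type intestine, Gstm3 by -3.68 and -3.20, and Gstm4 by -3.02 and -2.98. Gstm5, at one end of the row, fell least, by 1.01 in Amacr-/- and 0.76 in wild-type intestine. In Amacr-/- arrays Gstm4 read 9.17, 8.74 and 8.59 in segment 1, 7.55, 6.99 and 7.56 in segment 2, 6.01, 5.96 and 5.82 in segment 3 and 5.79, 5.51 and 6.13 in segment 4. Its wild-type arrays read 8.58, 8.41 and 9.47 in segment 1, 7.98, 8.36 and 7.15 in segment 2, 6.50, 6.34 and 6.59 in segment 3 and 5.92, 5.67 and 5.93 in segment 4. Segments 3 and 4 of Gstm4 overlapped in Amacr-/- intestine, whereas in wild-type intestine segment 3 lay above segment 4. In segment 3 the arrays of the genotypes did not overlap. Deviations of the arrays from their group means correlated between Gstm genes at a median r of 0.50 over 21 pairs, from -0.43 to 0.89. This describes 24 arrays that the genes of a pair share, with probes that may share targets.

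Among the other soluble enzymes, that of Gstt1, of the theta class, takes small halogenated compounds. Gstt1 averaged 11.42 ± 0.13 in segment 1 and 7.97 ± 0.23 in segment 4 of Amacr-/- intestine, and 11.20 ± 0.28 and 7.95 ± 0.84 in wild-type intestine (SD, n = 3). Its changes were -3.45 and -3.25, whereas its neighbours on chromosome 10 moved far less. Gstt2 changed by -0.60 in Amacr-/- and -0.70 in wild-type intestine, and Gstt3 by -0.61 and -0.65. Gstt4, near 5 on all arrays, was not called in either genotype. Gstk1, the kappa-class enzyme of mitochondria and peroxisomes, fell by 2.48 in Amacr-/- and by 1.88 in wild-type intestine. Gstz1, better known as the maleylacetoacetate isomerase of tyrosine breakdown, fell by 0.66 and 1.21. The omega-class Gsto1, a reducer of dehydroascorbate, fell by 0.58 and 0.47, and Gsto2 stayed under 5 on every array. The pi-class Gstp3 changed by -0.40 (SE 0.24, adjusted p = 0.247) in Amacr-/- intestine and was not called, and by -0.82 (SE 0.24, adjusted p = 0.0176) in wild-type intestine, where it was. That difference between genotypes was itself not called (adjusted p = 0.962 in the test of genotype by segment).

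**Figure D3:**
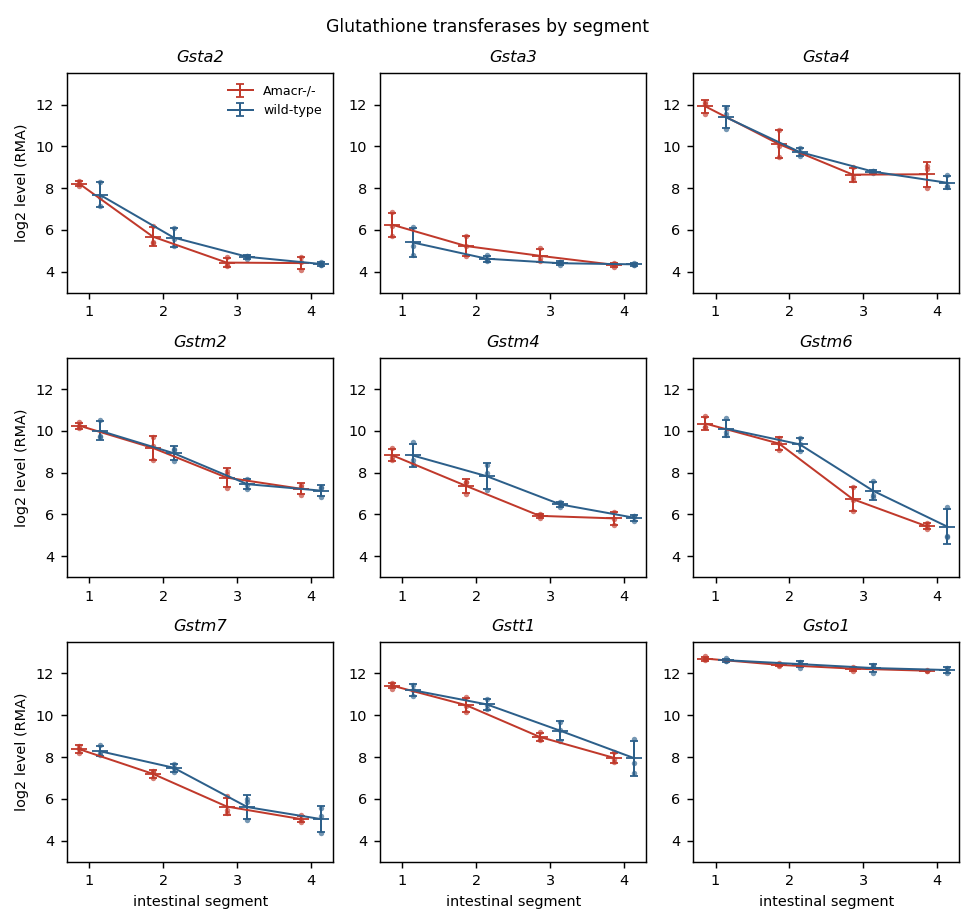
Log2 levels of Gst genes by segment (horizontal axis, 1 to 4) in Amacr-/- (red) and wild-type intestine (blue). Points are arrays, crossbars and error bars the mean ± SD of 3. Gstm6 descends to 5.43 in Amacr-/- and 5.41 in wild-type arrays of segment 4, and the lines of the 2 genotypes run close together.

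Promoter windows of Gsta2, of the alpha class, and Gstm2, of the mu class, are shown as examples of genes that fell. Gstm6, Gstm1, Gstm3 and Gstm7 fell more than Gstm2. The windows shown do not stand for the other genes of their classes. Each holds 250 bases before and 50 after the start of the gene, from RefSeq on GRCm38.p6, read on the minus strand at chr9:78347096-78347395 for Gsta2 and at chr3:107986371-107986670 for Gstm2. Capitals mark matches on either strand to GTTAAT, a core of sites for the hepatocyte nuclear factor HNF1, or to AGATAA or TGATAA, cores of sites for GATA factors.
Gsta2: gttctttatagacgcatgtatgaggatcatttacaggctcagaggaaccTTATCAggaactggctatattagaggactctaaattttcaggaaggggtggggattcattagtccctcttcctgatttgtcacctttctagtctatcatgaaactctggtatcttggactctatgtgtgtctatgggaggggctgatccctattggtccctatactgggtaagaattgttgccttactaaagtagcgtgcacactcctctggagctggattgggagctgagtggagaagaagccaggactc
Gstm2: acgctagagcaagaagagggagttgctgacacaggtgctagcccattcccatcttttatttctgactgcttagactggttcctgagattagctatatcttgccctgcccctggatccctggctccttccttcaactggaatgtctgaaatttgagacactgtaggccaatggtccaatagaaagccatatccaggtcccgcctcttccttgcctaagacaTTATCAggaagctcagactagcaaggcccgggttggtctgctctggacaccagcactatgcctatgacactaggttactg
Both windows hold 1 TGATAA, read on the opposite strand, with its first base at -201 in Gsta2 and at -30 in Gstm2. No other alpha or mu gene had TGATAA in a window, and AGATAA was found in Gsta3 and Gstm7 alone among them. TGATAA was in 9.05% and AGATAA in 11.2% of all 32851 promoter windows of this length, and 1 or both in 18.6%. Windows were given for 38 of the 41 genes (50 windows), of which 15 held 1 or both GATA cores. The antioxidant response element core TGACNNNGC, a site of the factor NRF2, was in 12.4% of all windows and in 4 of the 50 (Gsta3, Gstm5, Gstm7 and Mgst1). GTTAAT was in 7.1% of all windows and 4 of the 50, the CDX core TTTATG in 11.9% and 5, TATAAA in 13.6% and 9, the HNF4 core CAAAGTCCA in 0.475% and 1, the xenobiotic response core TTGCGTG in 1.16% and 1, and the full HNF1 site in 0.00913% and 0. Both strands were read, and AGATAA and TGATAA cannot match at the same place. A match of so few letters is a description of the window and not a site in use.

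Membrane-bound enzymes diverged from each other. Mgst1, a glutathione transferase and peroxidase of the endoplasmic reticulum and outer mitochondrial membrane, was the gene that rose in both genotypes. Its Amacr-/- arrays read 12.20, 11.94 and 12.04 in segment 1, 12.02, 12.41 and 12.31 in segment 2, 12.92, 12.73 and 12.60 in segment 3 and 12.81, 12.77 and 12.61 in segment 4. In wild-type intestine Mgst1 stood at 12.28, 12.23 and 12.05 in segment 1, 12.16, 11.79 and 12.26 in segment 2, 12.35, 12.42 and 12.78 in segment 3 and 12.58, 12.79 and 12.52 in segment 4. Segments 3 and 4 were above segments 1 and 2 without overlap in both genotypes. The change in Mgst1 was 0.67 (SE 0.14, adjusted p = 0.000876) in Amacr-/- and 0.44 (SE 0.14, adjusted p = 0.0241) in wild-type intestine. The wild-type call was lost without replicate 3 of segment 1 or replicate 2 of segment 4 (adjusted p up to 0.117). The rise lay between segments 2 and 3, at 0.47 (SE 0.10, adjusted p = 0.00294) over both genotypes.

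Mgst2, which can form leukotriene C4, went the other way by a similar amount. Amacr-/- arrays of Mgst2 gave 12.40, 12.19 and 12.27 in segment 1, 11.75, 11.90 and 12.11 in segment 2, 12.04, 11.88 and 11.70 in segment 3 and 11.64, 11.62 and 11.64 in segment 4. Those of wild-type intestine gave 12.09, 12.08 and 12.35 in segment 1, 12.02, 11.95 and 11.81 in segment 2, 11.81, 11.82 and 11.93 in segment 3 and 11.48, 11.69 and 11.64 in segment 4. Segment 1 lay above and segment 4 below every array of the other segments in both genotypes. Mgst3, a further glutathione peroxidase of membranes, read 12.64, 12.64 and 12.70 in segment 1, 12.29, 12.58 and 12.93 in segment 2, 12.10, 12.36 and 12.14 in segment 3 and 11.96, 12.10 and 12.23 in segment 4 in Amacr-/- intestine. It read 12.78, 12.65 and 12.65 in segment 1, 12.50, 12.42 and 12.52 in segment 2, 12.33, 12.32 and 12.33 in segment 3 and 12.04, 12.12 and 12.26 in segment 4 in wild-type intestine, where no neighbouring segments overlapped. From segment 1 to 4 Mgst2 fell by 0.65 in Amacr-/- and 0.57 in wild-type intestine (adjusted p = 6.63e-05 and 0.000355), and Mgst3 by 0.56 and 0.55 (adjusted p = 0.000852 and 0.00132). With the marker covariates, 0 of the 3 Mgst genes were called in either genotype. The change in Mgst1 was then 0.14 in Amacr-/- and 0.04 in wild-type intestine, that in Mgst2 -0.60 and -0.51, and that in Mgst3 -0.45 and -0.44.

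The 7 Ugt2 genes, whose enzymes glucuronidate steroids, bile acids and many drugs, lie together on chromosome 5 in the order Ugt2b34, Ugt2b1, Ugt2b36, Ugt2b5, Ugt2b37, Ugt2a3 and Ugt2b38. Of these, 4 fell from segment 1 to segment 4 in both genotypes (Ugt2b34, Ugt2b5, Ugt2a3 and Ugt2b38), each with a course of its own. By the mean of both genotypes, Ugt2a3 fell mainly at the last step, and Ugt2b5 and Ugt2b38 fell most at the first. In wild-type intestine alone, Ugt2b5 averaged 10.26, 8.02 and 5.68 in segments 1 to 3, with first and second steps of similar size. Promoter windows of these 3 genes are shown. They come from the same source, all on the minus strand, at chr5:87337146-87337445 for Ugt2a3, chr5:87140291-87140590 for Ugt2b5 and chr5:87424154-87424453 for Ugt2b38, with capitals as above.
Ugt2a3: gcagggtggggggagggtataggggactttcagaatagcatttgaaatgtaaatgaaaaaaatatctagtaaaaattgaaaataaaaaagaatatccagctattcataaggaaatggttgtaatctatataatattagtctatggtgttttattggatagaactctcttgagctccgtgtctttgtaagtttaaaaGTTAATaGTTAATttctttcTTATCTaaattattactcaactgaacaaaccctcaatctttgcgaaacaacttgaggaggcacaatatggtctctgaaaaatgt
Ugt2b5: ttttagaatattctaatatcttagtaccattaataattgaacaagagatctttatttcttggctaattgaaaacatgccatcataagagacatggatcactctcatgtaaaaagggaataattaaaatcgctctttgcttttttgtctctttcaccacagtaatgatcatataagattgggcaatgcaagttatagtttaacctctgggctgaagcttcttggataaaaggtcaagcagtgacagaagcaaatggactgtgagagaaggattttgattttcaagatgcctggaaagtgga
Ugt2b38: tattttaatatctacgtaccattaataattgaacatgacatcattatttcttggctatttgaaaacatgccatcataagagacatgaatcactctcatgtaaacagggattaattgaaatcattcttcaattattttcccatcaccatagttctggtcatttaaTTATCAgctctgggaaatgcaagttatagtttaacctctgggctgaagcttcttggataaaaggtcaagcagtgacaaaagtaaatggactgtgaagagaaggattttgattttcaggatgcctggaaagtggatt
Ugt2a3 holds 2 GTTAAT, starting at -54 and -47, and 1 AGATAA on the opposite strand at -34. Ugt2b38 holds 1 TGATAA on the opposite strand at -86, and Ugt2b5 none of the 3 motifs. Aligned end to end, the windows of Ugt2b5 and Ugt2b38 were identical at 84.2% of 310 positions, and the other pairs among the 5 windows shown at 38.2 to 47.9%.

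Ugt2a3 held its level through the first segments and lost it in the last. Amacr-/- arrays of Ugt2a3 read 11.02, 10.83 and 11.03 in segment 1, 10.66, 10.73 and 11.23 in segment 2, 10.34, 9.68 and 9.44 in segment 3 and 6.89, 6.97 and 7.26 in segment 4. Wild-type arrays read 10.49, 11.01 and 11.05 in segment 1, 10.62, 10.67 and 10.70 in segment 2, 9.91, 10.17 and 10.30 in segment 3 and 6.36, 7.71 and 8.55 in segment 4. Segments 1 and 2 overlapped, segment 3 was a little lower, and segment 4 lay far below in both genotypes, with a wide spread in the wild-type. The last step was -2.68 (SE 0.25, adjusted p = 4.38e-07) over both genotypes, against -0.14 for the first (adjusted p = 0.824). In all, Ugt2a3 was 15.1-fold lower in segment 4 of Amacr-/- intestine (adjusted p = 5.36e-08) and 9.92-fold lower in wild-type intestine (adjusted p = 6.49e-07). The call of its middle step (-0.80) was lost without any 1 of 10 arrays.

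Ugt2b5 dropped first and then came back in part. In Amacr-/- arrays it read 10.43, 10.67 and 10.50 in segment 1, 8.13, 6.79 and 9.02 in segment 2, 7.46, 6.67 and 6.29 in segment 3 and 8.36, 7.89 and 7.92 in segment 4. Its wild-type arrays read 9.22, 10.48 and 11.07 in segment 1, 7.42, 8.54 and 8.10 in segment 2, 5.14, 5.41 and 6.49 in segment 3 and 7.31, 6.78 and 7.27 in segment 4. Segment 3 was lowest by group mean, and segment 4 stood above segment 3 without overlap in both genotypes. The steps were -2.40 (SE 0.35, adjusted p = 0.000211) from segment 1 to 2, -1.76 (SE 0.35, adjusted p = 0.00224) from segment 2 to 3 and 1.34 (SE 0.35, adjusted p = 0.0147) from segment 3 to 4. With the marker covariates the middle and last steps were -1.34 and 1.62 and were not called (adjusted p = 0.0597 and 0.102). With the 6 arrays of raised markers left out they were -1.01 (adjusted p = 0.141) and 1.22 (adjusted p = 0.00885).

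Ugt2b38 was highest in segment 1, and scattered there. Its Amacr-/- arrays read 6.03, 11.62 and 9.16 in segment 1, 5.0, 4.33 and 6.97 in segment 2, 4.55, 4.53 and 4.17 in segment 3 and 4.43, 4.28 and 4.64 in segment 4. Its wild-type arrays read 7.99, 8.47 and 9.38 in segment 1, 5.24, 5.05 and 6.75 in segment 2, 4.90, 4.52 and 4.60 in segment 3 and 4.57, 4.34 and 4.19 in segment 4. The 3 Amacr-/- arrays of segment 1 spread widely, and the lowest of them lay within the range of segment 2. The first step was -3.22 (SE 0.62, adjusted p = 0.00282), and levels in segments 3 and 4 stayed between 4.17 and 4.90 on all arrays. For Ugt2b34, Amacr-/- arrays gave 12.42, 12.33 and 12.35 in segment 1, 12.05, 12.05 and 12.33 in segment 2, 11.93, 11.81 and 11.89 in segment 3 and 11.73, 11.53 and 11.69 in segment 4. The wild-type gave 12.01, 12.35 and 12.36 in segment 1, 11.94, 12.07 and 12.11 in segment 2, 11.89, 11.91 and 11.97 in segment 3 and 11.38, 11.58 and 11.79 in segment 4. Segment 4 of Ugt2b34 lay below all others in both genotypes, a small fall of 0.72 in Amacr-/- (adjusted p = 3.44e-05) and 0.66 in wild-type intestine (adjusted p = 0.000113). Ugt2b36 ranged from 6.77 to 8.93 and was not called between segments 4 and 1 in either genotype. Ugt2b1 and Ugt2b37 were under 5 on every array.

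**Figure D4:**
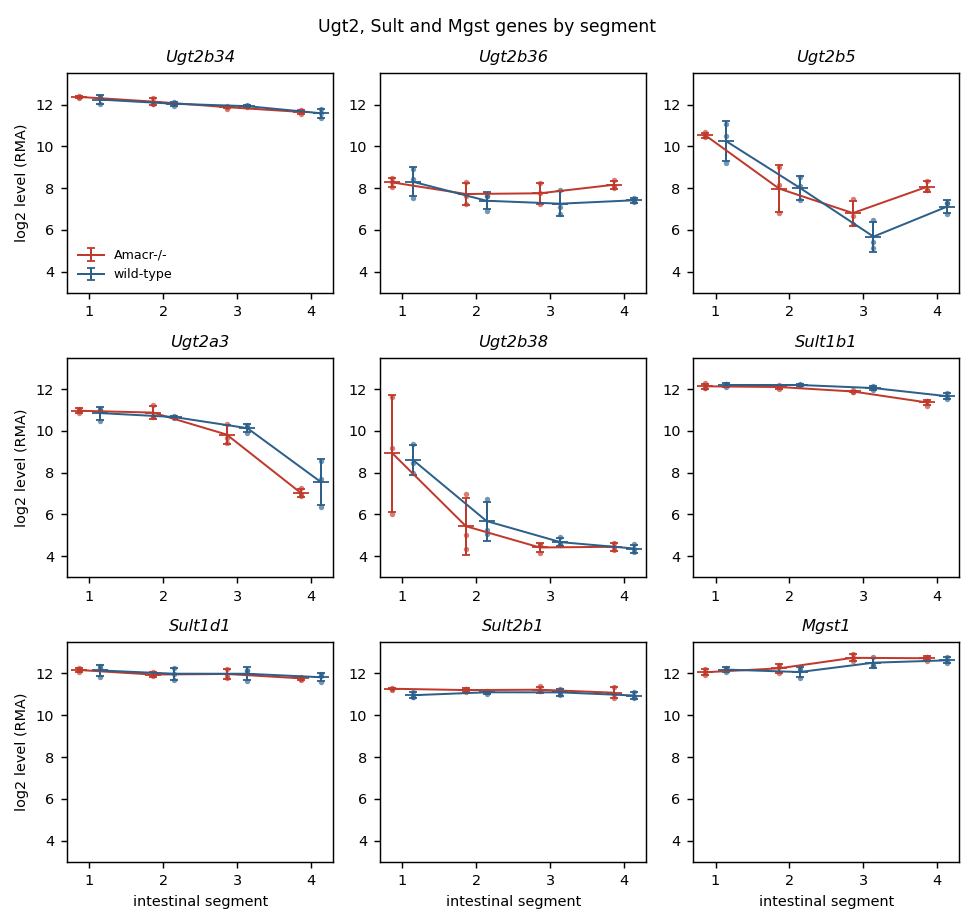
Log2 levels of Ugt2, Sult and Mgst genes by segment (horizontal axis, 1 to 4) in Amacr-/- (red) and wild-type intestine (blue). Points are arrays, crossbars and error bars the mean ± SD of 3. Ugt2a3 drops at segment 4, Ugt2b5 is lowest at segment 3, Ugt2b38 is scattered in segment 1, and Mgst1 is above 12.3 in segments 3 and 4.

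Of the 12 Sult genes, 3 fell in Amacr-/- intestine (Sult1b1, Sult1c1 and Sult5a1), when 14.9% of all genes fell, and 1 in wild-type intestine (Sult1b1), when 13.6% did. The median change of the 12 was -0.19 in Amacr-/- and -0.04 in wild-type intestine. Sult1b1, which sulfates phenols and thyroid hormones, read 12.27, 12.06 and 12.06 in segment 1, 11.98, 12.20 and 12.11 in segment 2, 11.93, 11.88 and 11.84 in segment 3 and 11.44, 11.43 and 11.21 in segment 4 in Amacr-/- arrays. In wild-type arrays it read 12.08, 12.26 and 12.24 in segment 1, 12.17, 12.19 and 12.22 in segment 2, 12.03, 12.15 and 11.96 in segment 3 and 11.52, 11.64 and 11.81 in segment 4. Segment 4 was below every other segment in both genotypes. The fall of Sult1b1 was 0.77 (SE 0.09, adjusted p = 1.81e-06) in Amacr-/- and 0.54 (SE 0.09, adjusted p = 0.00016) in wild-type intestine. Most of it came at the last step, with -0.46 (SE 0.06, adjusted p = 6.36e-05) over both genotypes. Sult1c1 and Sult5a1 fell by 0.29 and 0.32 in Amacr-/- intestine. Sult1d1, its neighbour on chromosome 5 and a catecholamine sulfotransferase, lay between 11.60 and 12.35 on all arrays and was not called (-0.40 in Amacr-/- and -0.33 in wild-type intestine).

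Sult2b1, which sulfates cholesterol, stood at 11.23, 11.30 and 11.28 in segment 1, 11.25, 11.10 and 11.27 in segment 2, 11.15, 11.14 and 11.38 in segment 3 and 11.02, 10.85 and 11.37 in segment 4 of Amacr-/- intestine. Wild-type arrays of Sult2b1 gave 10.88, 10.88 and 11.12 in segment 1, 11.14, 11.13 and 11.03 in segment 2, 11.26, 11.07 and 10.96 in segment 3 and 10.84, 10.88 and 11.12 in segment 4. The segments overlapped, and the changes from segment 1 to 4 of -0.19 and -0.01 were not called (adjusted p = 0.251 and 0.958). Sult1a1, a phenol sulfotransferase, lay between 4.46 and 5.34 on all but 4 arrays. Those 4 were replicate 3 of segment 3 (7.0), replicate 1 (5.92) and replicate 3 (5.41) of segment 2 in Amacr-/- intestine, and replicate 3 of segment 2 (5.81) in wild-type intestine. On the same 4 arrays, in that order, the fat cell markers lay 4.06, 1.16, 1.11 and 2.24 above their mean over all arrays. Smooth muscle markers lay 0.37, 2.68, 1.16 and 3.23 above theirs, and markers of fibroblasts 1.18, 1.04, 0.07 and 1.14. The part of fat or of other tissue in the Sult1a1 values was not tested. Sult1c2 reached 7.70 on 1 array, replicate 2 of segment 1 in Amacr-/- intestine, and 4.33 to 6.02 on the others. Sult4a1 and Sult5a1 ranged from 4.71 to 6.14. Sult1c1, the estrogen sulfotransferase Sult1e1, Sult2a8, Sult3a1 and Sult6b1 were under 5 on every array.

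Genes that supply or regulate these reactions were read from lists drawn up with earlier results of these data known. Their counts stand beside 15.4% of all genes risen and 14.9% fallen from segment 1 to 4 in Amacr-/- intestine, and 10% and 13.6% in wild-type intestine. Of 6 genes of PAPS supply measured, 2 rose and 2 fell from segment 1 to segment 4 in both genotypes. The PAPS synthases moved in opposite directions: Papss2 averaged 12.76 ± 0.21 in segment 1 and 9.38 ± 0.16 in segment 4 of Amacr-/- intestine, and 12.67 ± 0.30 and 9.46 ± 0.30 in wild-type intestine (SD, n = 3), whereas Papss1 averaged 8.37 ± 0.23 and 10.62 ± 0.14 in Amacr-/- and 8.71 ± 0.07 and 10.56 ± 0.05 in wild-type intestine. Papss2 thus changed by -3.38 (SE 0.25, adjusted p = 5.88e-09) in Amacr-/- and -3.20 (SE 0.25, adjusted p = 1.92e-08) in wild-type intestine, while the change in Papss1 was 2.25 (SE 0.11, adjusted p = 2.01e-11) in Amacr-/- and 1.85 (SE 0.11, adjusted p = 4.42e-10) in wild-type intestine. Bpnt1, whose enzyme clears the product left by sulfation, fell by 1.80 and 1.77. Of 5 genes of UDP-glucuronate supply, 1 rose and 2 fell in both genotypes, among them Ugdh, which makes UDP-glucuronate (-1.01 and -1.02). Of 9 genes of glutathione synthesis and recycling, 2 rose and 4 fell in Amacr-/- intestine, and 1 rose and 4 fell in wild-type intestine.

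Exporters of conjugates divided as well, with 1 of 9 risen and 3 fallen in both genotypes, when 30.3% of all genes were called in Amacr-/- and 23.6% in wild-type intestine. Abcc2, which pumps conjugates across the apical membrane, fell by 1.85 in Amacr-/- and 1.98 in wild-type intestine. Abcc3, its basolateral counterpart, fell by 1.79 and 1.34, and the apical Abcg2 rose by 0.96 and 0.90. Of 17 regulators measured, 4 rose and 7 fell in Amacr-/- intestine, and 3 rose and 9 fell in wild-type intestine. Nr1i3, the constitutive androstane receptor that drives many conjugating enzymes, averaged 9.34 ± 0.21 in segment 1 and 5.49 ± 0.44 in segment 4 of Amacr-/- intestine, and 9.02 ± 0.24 and 5.57 ± 0.66 in wild-type intestine (SD, n = 3). Its changes were -3.85 and -3.45, beside -1.80 and -1.64 for the regional factor Gata4 and 2.77 and 2.03 for the bile acid receptor Nr1h4. Of 10 deconjugating enzymes, 2 rose and 5 fell in Amacr-/- intestine (15.4% and 14.9% of all genes), and 2 rose and 4 fell in wild-type intestine (10% and 13.6%). Of 12 other conjugating or detoxifying enzymes, 1 rose and 6 fell in both genotypes.

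Between the genotypes, none of the 41 genes was called. At limma's adjusted p under 0.05, 0 of 41 differed in segment 1 (0.111% of all genes were called), 0 in segment 2 (0.0721%), 0 in segment 3 (0.0262%), 0 in segment 4 (0.0655%) and 0 over the intestine as a whole (0.0262%, means of the 4 segments per replicate number, 3 against 3). At an unadjusted p under 0.05 the counts were 5, 1, 2, 2 and 6 of 41, beside 1740, 1040, 1243, 748 and 1190 of all 15267 genes. Of the 41 genes, 30 were higher and 11 lower in Amacr-/- than in wild-type intestine in segment 1, 23 and 18 in segment 2, 16 and 25 in segment 3, and 20 and 21 in segment 4. Of all genes, 7993 were higher and 7232 lower in segment 1, 7938 and 7264 in segment 2, 6725 and 8480 in segment 3, and 7478 and 7673 in segment 4. In the test of genotype by segment, 0 of 41 genes and 0 of all genes were called (limma's moderated F test), and 2 of 41 (Sult1c1 and Gstz1) and 907 of all genes had an unadjusted p under 0.05. The 3 arrays of each genotype did not overlap for 5 of the 41 genes in segment 1 (16.7% of all genes), 0 in segment 2 (9.5%), 4 in segment 3 (10.9%) and 4 in segment 4 (10.7%). In segment 1 these were Gstm5, Sult2b1 and Sult3a1, higher in Amacr-/- intestine, and Gstt2 and Gstz1, lower. In segment 3 Gsta3 was higher and Gstm4, Sult1b1 and Sult1c1 lower, and in segment 4 Gstz1, Ugt2b36 and Ugt2b5 were higher and Sult1b1 lower.

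**Figure D5:**
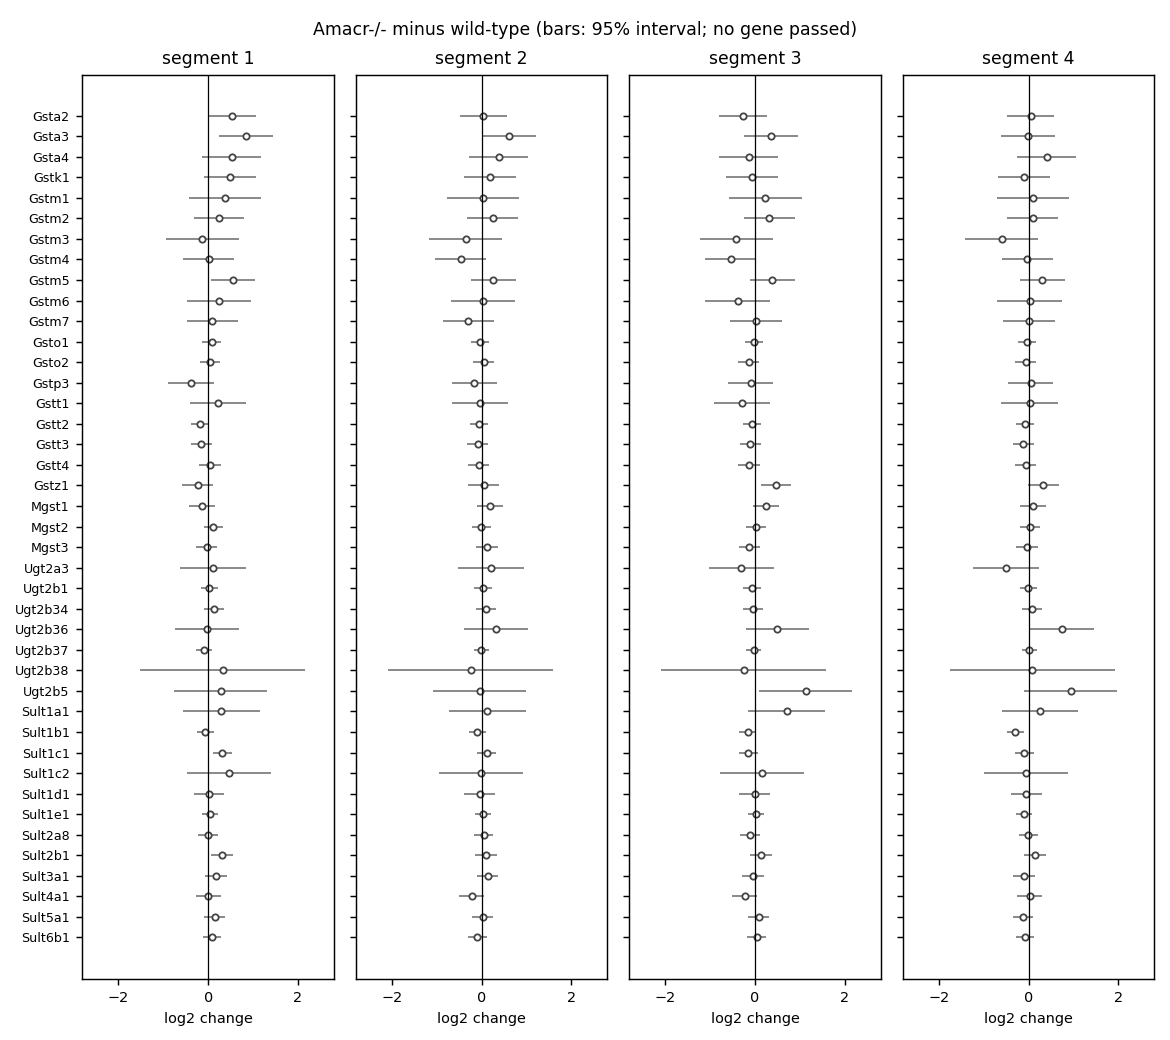
Log2 difference of each conjugating enzyme, Amacr-/- minus wild-type, in segments 1 to 4. Points are limma estimates from 3 arrays per genotype, bars 95% intervals, and open points mark that no gene reached an adjusted p under 0.05. Most intervals include 0, and those of Ugt2b5 and Ugt2b38 are wide. The fit pools the spread of a gene over all groups, so its interval is equally wide in every segment.

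Gsta3 had the smallest adjusted p over the intestine, 0.396, with a difference of 0.45 (SE 0.12). Amacr-/- arrays of Gsta3 read 6.85, 6.19 and 5.71 in segment 1, 5.71, 4.74 and 5.24 in segment 2, 4.66, 4.51 and 5.12 in segment 3 and 4.22, 4.37 and 4.41 in segment 4. Wild-type arrays read 5.25, 4.81 and 6.14 in segment 1, 4.53, 4.78 and 4.56 in segment 2, 4.46, 4.30 and 4.46 in segment 3 and 4.42, 4.32 and 4.32 in segment 4. Amacr-/- means were higher in segments 1 to 3, but the arrays were separate in segment 3 alone. The difference in segment 1 was 0.85 (95% interval 0.25 to 1.45, adjusted p = 0.291), and it lay between 0.55 and 1.22 when 1 array was left out. Gstm5 was higher by 0.55, 0.26, 0.38 and 0.31 in segments 1 to 4 and by 0.37 over the intestine (adjusted p = 0.615). In segment 1 its Amacr-/- arrays, 9.19, 9.05 and 9.05, all exceeded the wild-type arrays, 8.85, 8.38 and 8.40. With the marker covariates, in a fit over all 24 arrays, Gstm5 was called (0.37, SE 0.07, adjusted p = 0.0151) when 1.83% of all genes were. The same fit without covariates called 0 of the 41 and 223 of all genes, so both the form of the fit and the covariates differ from the test of 3 against 3. A fit of 24 arrays takes every array as an independent sample. If the segments came from the same mice, each mouse was counted 4 times. The SE and adjusted p of this Gstm5 call may then be too small.

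Gstm4 averaged lower in Amacr-/- intestine, with a difference of -0.55 in segment 3 (95% interval -1.12 to 0.02, adjusted p = 0.619) and of -0.26 over the intestine (adjusted p = 0.543). Sult1b1 was lower by 0.16 in segment 3 and 0.30 in segment 4 (95% interval -0.49 to -0.11, adjusted p = 0.533), and in both its arrays lay below those of the wild-type without overlap. Sult2b1 differed by 0.31 in segment 1, where its arrays were separate (adjusted p = 0.338), and by 0.17 over the intestine (adjusted p = 0.613). Gstz1 differed by -0.23 in segment 1 and by 0.47 in segment 3. In segment 3 the value was 0.23 without replicate 3 of Amacr-/- intestine, the array whose fat cell markers lay 4.06 above their mean.

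Among the Ugt2 genes the widest genotype differences were those of Ugt2b5, higher by 1.13 in segment 3 (95% interval 0.09 to 2.16, adjusted p = 0.588) and by 0.94 in segment 4 (95% interval -0.10 to 1.97, adjusted p = 1). In segment 4 its Amacr-/- arrays, 8.36, 7.89 and 7.92, were all above the wild-type arrays, 7.31, 6.78 and 7.27. Over the intestine Ugt2b5 differed by 0.57 (adjusted p = 0.645), or by 0.33 to 0.81 with 1 replicate left out. Ugt2b36, next to it on the chromosome, read 8.48, 8.29 and 8.06 in segment 1, 7.62, 7.24 and 8.30 in segment 2, 8.23, 7.79 and 7.24 in segment 3 and 8.37, 8.03 and 8.08 in segment 4 in Amacr-/- intestine. In wild-type intestine Ugt2b36 read 7.55, 8.44 and 8.93 in segment 1, 6.93, 7.62 and 7.64 in segment 2, 6.77, 7.08 and 7.92 in segment 3 and 7.32, 7.55 and 7.39 in segment 4. Its arrays were separate in segment 4, where Amacr-/- intestine was higher by 0.74 (adjusted p = 0.973). Ugt2b38 had the widest 95% interval in each segment, for example -1.52 to 2.17 in segment 1. The fit pooled the spread of a gene over all 8 groups, so its interval was equally wide in every segment. Ugt2b38 scattered in segments 1 and 2, whereas its arrays of segments 3 and 4 lay between 4.17 and 4.90. The width of its interval in segments 3 and 4 therefore does not describe the spread of those arrays.

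In the supply and regulator lists, genotype calls were made for 2 genes, both of glutathione metabolism. Gclc, which carries out the first step of glutathione synthesis, was higher in segment 1 of Amacr-/- intestine by 1.12 (SE 0.20, adjusted p = 0.0299), and Chac1, which degrades glutathione, was higher in segment 2 by 1.33 (SE 0.24, adjusted p = 0.0363). The Gclc call was kept in 10 of 17 alternatives, with differences of 0.89 to 1.31 and adjusted p up to 0.282, and was lost without any 1 of 4 arrays. The Chac1 call was kept in 8 of 16 and lost without any 1 of 5 arrays. With the arrays of raised markers left out, Chac1 differed by 0.83 (adjusted p = 0.938). The 3 alpha-class Gst genes differed by 0.53, 0.85 and 0.52 in segment 1 and were not called. In the lists of PAPS supply, UDP-glucuronate supply, exporters, deconjugating enzymes, regulators and other conjugating enzymes, 0 genes were called in any genotype comparison.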

How the data were processed

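The authors deposited 1 log2 value per probe set and array, made by RMA from one-colour arrays per the submitters' processing notes; its version, its settings and the base of the logarithm are not given in the sources used here, and log2 is what RMA returns. Of 16556 probe sets, 64 were controls, 15270 had 1 gene name and 1222 had none here; 3 genes had 2 probe sets, of which the one with the higher mean over all arrays was kept, leaving 15267 genes. Precision is limited by having 3 arrays per group.

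The members, gene lists and tests were chosen with earlier results of these data known. Every member is named; values in every array are given for members called between genotypes and, per family, for up to 4 called for segment differences in wild-type intestine and up to 2 with the smallest unadjusted p over the whole intestine, with a few further genes chosen after their values were seen. limma 3.58.1 (R 4.3.3, lmFit and eBayes) was fitted to all 24 arrays, with 8 group means and Benjamini-Hochberg adjustment over all genes. Each difference is Amacr-/- minus wild-type, or later minus earlier segment. The test over the whole intestine used the mean of the 4 segments per genotype and replicate number, 3 against 3. P-values measure the spread between these samples. Within a genotype, same-numbered arrays of other segments correlated in their deviations at a median r of 0.06 (-0.29 to 0.52). Arrays with other numbers did so at -0.07 (-0.51 to 0.48). These values do not settle whether a number marks 1 mouse. The fit of 24 arrays did not take the numbers as pairs, whereas the test over the whole intestine averaged by number. The fit was also run on simulated arrays that were drawn independently. Such arrays cannot bear on segments that share a mouse or on arrays with raised markers. Alternatives were another normalization between arrays, filters on dim genes, all probe sets, a robust variance trend, a replicate block, fewer arrays in the fit and leaving out each replicate. After the data were seen, 2 were added: leaving out 6 arrays with high markers of fat, smooth muscle or pancreas, and marker means as covariates. Promoter windows are RefSeq's on GRCm38.p6, searched for 9 motifs on both strands and aligned with Biopython 1.88.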

Additional observations from a re-analysis of the deposited data

How the results depend on the processing

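No result reversed under any alternative run. Counts of members called stayed within 1.5 times those reported under both normalizations between arrays, both filters on dim genes, all probe sets, the robust variance trend, fewer arrays in the fit and each replicate left out. With 1 replicate left out, 0 members were called in every genotype comparison. The same range was 24 to 27 for segment 4 minus segment 1 in Amacr-/- and 23 to 25 in wild-type intestine, 22 to 25 and 22 to 24 for any segment difference, 11 to 16 for segment 2 minus 1, 12 to 15 for segment 3 minus 2 and 8 to 12 for segment 4 minus 3. The settings added after the data were seen moved more, and the cause was not tested. When the 6 arrays with raised markers were left out, which leaves 1 array in segment 2 of Amacr-/- intestine, assumed to vary like the other groups, 8 members were called for segment 2 minus 1 and 6 for segment 3 minus 2, among 487 and 443 genes in all. With marker means as covariates, 12 were called for any segment difference in Amacr-/- intestine (1026 genes), 13 for segment 4 minus 1 in Amacr-/- (924 genes) and 14 in wild-type intestine (1217 genes), 8 for segment 2 minus 1 (424 genes) and 2 for segment 4 minus 3 (343 genes). Over the whole intestine between genotypes the covariates were put into a fit of all 24 arrays, which changes the form of the fit as well. A fit of 24 arrays takes every array as an independent sample, so a mouse may be counted more than once. The fit with covariates called 1 member, Gstm5, and 279 genes. Without covariates the fit of 24 arrays called 0 and 223, and the test of 3 against 3 called 0 and 4. The main counts of all genes were 4317 and 3468 for any segment difference in Amacr-/- and wild-type intestine, 4633 and 3601 for segment 4 minus 1, 1071 for segment 2 minus 1, 1640 for segment 3 minus 2 and 1866 for segment 4 minus 3. Counts of all genes called between genotypes were small and moved over all settings from 2 to 32 in segment 1 (main 17), 1 to 28 in segment 2 (11), 0 to 10 in segment 3 (4), 3 to 17 in segment 4 (10) and 0 to 279 over the whole intestine (4). With the replicate number as a fixed block, 26 members were called for segment 4 minus 1 in Amacr-/- intestine and 0 over the whole intestine between genotypes, and no call of a named gene changed; as a random block the correlation was 0.0913. A fit of 12 arrays of 1 genotype can give no mean of both genotypes and was not run for segment 4 minus 3.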
